A study of Mus musculus with 12 samples.

Results

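The lacrimal gland makes the watery, protein-rich part of tears, and the NOD (non-obese diabetic) mouse is an inbred strain prone to autoimmune inflammation of its tear and salivary glands. The comparison described here sets lacrimal glands of NOD mice aged 12 weeks (3 libraries) against glands of control mice (3 libraries), gene by gene. Of the 11736 genes in the expression table, all of the protein-coding type, the 9967 with at least 1 FPKM in 3 or more of these 6 libraries were compared. A gene can pass this filter through 1 group alone, and is then bound to lie higher in that group. The series as a whole holds 12 libraries, with 3 more from NOD mice aged 8 weeks and 3 from a group labelled ESS, in a study of a mouse model of Sjögren's syndrome, the autoimmune disease of tear and salivary glands. No genotype, sex or age is given for the controls, no treatment is given for either group, and the sex of the NOD mice is not given. Strain, sex, age and husbandry therefore cannot be told apart as sources of any difference below. Nothing in the labels says that each library came from its own animal, so the p-values measure the spread between these libraries, which may be technical.

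FPKM counts the sequenced fragments of a gene per kilobase of its transcript, set relative to the size of the library, so it is a share and not an absolute amount. Values were set on the scale log2(FPKM + 1), which understates the change of low genes, and groups were compared with limma, a linear model that borrows information on the spread from all genes. A gene is called where the Benjamini-Hochberg adjusted p over all 9967 genes is under 0.05. In bulk tissue, fewer cells of a type and less RNA per cell cannot be told apart. A lacrimal acinar cell spends most of its messenger RNA on a few tear proteins, so the share left for any other gene also moves with how much those few take up.

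In NOD 12-week glands 561 genes were called higher (5.63% of those tested) and 2825 lower (28.3%), or 34.0% in either direction. The median gene changed by -0.18 on the log2 scale. Each library was then centred by subtracting the median deviation of its genes from their means over all 12 libraries. With medians centred in this way, 1268 genes were called higher and 1266 lower, 12.7% each. All 561 rises and 1266 of the falls (12.7%) were called both as fitted and with centred medians. From here on a gene is said to have risen or fallen only where it was called both ways. Of these, 344 rises (3.45% of genes tested) and 1242 falls (12.5%) were also made with any 1 of the 6 libraries left out, and such calls are named below as holding without each library. Large differences were few by fitted log2 change. Among genes called both ways, rises reached 1 in 151 genes and 3 in 13, while falls reached -1 in 319 genes and -3 in 12. The 3 NOD 12-week libraries all lay above the 3 control libraries in 874 genes (8.77%) and all lay below them in 4061 genes (40.7%).

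The libraries differed between the groups in how much a few genes took up. The 20 most abundant genes of each library held 71.7% to 76.5% of the listed FPKM in NOD 12-week libraries and 66.7% to 69.8% in control libraries. Genes at 1 FPKM or more numbered 9377 to 9592 in NOD 12-week libraries and 9910 to 10010 in control libraries. The depth of the libraries could be estimated in relative terms alone, from the spacing of the lowest values. It was 1.03 to 1.13 times the mean of all 12 libraries in NOD 12-week libraries and 1.02 to 1.05 times in control libraries. The estimate is rough. In these 6 libraries 34.6% to 38.9% of the low values lay near whole multiples of the spacing, against 20% by chance. Control replicate 3 stood apart from the other controls on the second principal component (8.54% of the variance, score -27.1 against 1.91 and 3.39). The tissue label was checked with 5 genes: Lcn11, Scgb2b24, Aqp5, Bhlha15 and Ltf were each at 162 FPKM or more in all 6 libraries.

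**Figure D1:**
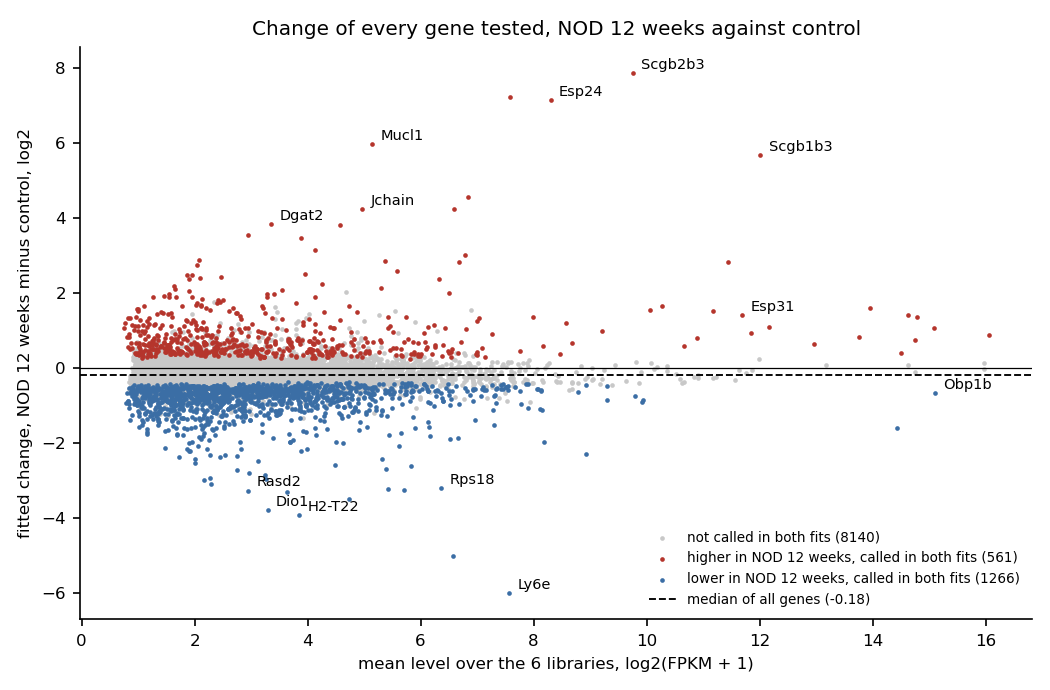
Each point is 1 of the 9967 genes tested. The horizontal axis gives the mean level over the 3 NOD 12-week and 3 control libraries as log2(FPKM + 1), and the vertical axis gives the fitted log2 change, NOD 12 weeks minus control. Red and blue mark the 561 genes called higher and the 1266 called lower both as fitted and with centred medians, grey the rest, and the dashed line the median change of -0.18. Among the most abundant genes, at the right, the red points of secretoglobins and Esp31 lie above the line and Obp1b below it.

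Tear proteins showed the largest rises. Secretoglobins are small secreted proteins that pair into dimers and, in mouse tears and saliva, carry small hydrophobic molecules. Of 20 tested, 13 rose (65.0%, against 5.63% of all genes) and 0 fell. Of the rises, 9 held without each library (45.0%, against 3.45% of all genes). Their median change was 1.20 on the log2 scale, against -0.18 for all genes. The 21 listed members with values summed to 281000, 337000 and 356000 FPKM in NOD 12-week libraries, against 182000, 138000 and 197000 FPKM in control libraries.

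The rises were uneven within the family. The neighbouring genes Scgb2b3 (chr7:31359038-31362072, minus strand) and Scgb1b3 (chr7:31375592-31376916, plus strand, GRCm38) differed most, and Scgb2b3 was at 1377 to 1926 FPKM in NOD 12-week libraries, against 1.99 to 11.4 FPKM in control libraries. Scgb1b3 stood at 6198, 9078 and 8974 FPKM in NOD 12-week libraries, against 156, 121 and 196 FPKM in control libraries (log2 change 5.68 ± 0.44 SE, adjusted p = 3.07e-06). Its longest transcript is 96.1% identical over 282 bases to that of Scgb1b29, and how reads were divided between such copies is not given, so the level of either is uncertain. Together the pair held 1.05% to 1.41% of the listed FPKM in NOD 12-week libraries and 0.0213% to 0.0308% in control libraries. At the abundant end, Scgb2b2 was at 34300, 32700 and 35900 FPKM in NOD 12-week libraries, against 20800, 19000 and 22100 FPKM in control libraries (log2 change 0.73 ± 0.15, adjusted p = 0.00327). The groups did not overlap for either gene, and 8.77% of all genes lay wholly higher in NOD 12-week libraries. By contrast Scgb2b24 was at 24300, 26300 and 28300 FPKM in NOD 12-week libraries and 30800, 23000 and 33100 FPKM in control libraries, overlapping ranges with an adjusted p of 0.56. Scgb1b2, the most abundant gene by its mean over the 6 libraries, was called higher in all 6 libraries together (log2 change 0.88 ± 0.24, adjusted p = 0.0136) but not without NOD 12-week replicate 3. The near-identical pairs Scgb1b20 and Scgb1b7 (98.8%) and Scgb2b20 and Scgb2b7 (98.7%) all rose, by 1.05 to 1.58, and cannot be told apart with certainty.

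Of 23 other lacrimal secretory products tested, 9 rose (39.1%, against 5.63% of all genes) and 1 fell (4.35%, against 12.7%). All 10 calls held without each library. Several belong to the exocrine gland-secreting peptides, a rodent family secreted in tears of which some members act as pheromones. Esp24 (chr17:39038285-39040117) was at 515, 664 and 697 FPKM in NOD 12-week libraries, against 1.52, 3.27 and 6.82 FPKM in control libraries (log2 change 7.15 ± 0.37, adjusted p = 1.05e-07). Esp23 was at 214, 152 and 170 FPKM in NOD 12-week libraries, against 26.7, 32.2 and 16.7 FPKM in control libraries (2.81 ± 0.23, adjusted p = 5.55e-06). Esp16 was at 5258, 4500 and 4782 FPKM in NOD 12-week libraries, against 919, 807 and 431 FPKM in control libraries, and its longest transcript is 96.4% identical to that of Esp15. Esp31, already abundant in controls, was at 4510, 4870 and 4950 FPKM in NOD 12-week libraries, against 1580, 2130 and 1720 FPKM in control libraries (1.41 ± 0.15, adjusted p = 4.06e-05). The family did not move as a whole: Esp6 was at 9770, 9210 and 9490 FPKM in NOD 12-week libraries and 9100, 8600 and 9290 FPKM in control libraries, an adjusted p of 0.491.

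Lipocalins, which carry odorants and lipids in a barrel-shaped pocket, went both ways. Lcn11 was at 6380, 6120 and 6160 FPKM in NOD 12-week libraries, against 3690, 2180 and 3120 FPKM in control libraries (1.09 ± 0.18, adjusted p = 0.000878). Obp1b, an odorant-binding protein on the X chromosome, was the one listed secretory product that fell. It was at 25400, 26800 and 28300 FPKM in NOD 12-week libraries, against 46200, 41400 and 41700 FPKM in control libraries (-0.68 ± 0.12, adjusted p = 0.00103). Its longest transcript is 99.3% identical to that of the predicted gene Gm14743. The related Obp1a was at 61800, 67300 and 71300 FPKM in NOD 12-week libraries and 62300, 63100 and 56900 FPKM in control libraries (adjusted p = 0.446). Mup5, a major urinary protein, was at 35.5, 41.5 and 52.9 FPKM in NOD 12-week libraries, against 2.29, 2.66 and 1.54 FPKM in control libraries (3.81 ± 0.73, adjusted p = 0.00235).

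Among the 12 largest rises by the rule for named genes were several that code for no tear protein. Dgat2, which carries out the last step of triglyceride synthesis, was at 20.5, 17 and 16.8 FPKM in NOD 12-week libraries, against 0.265, 0.266 and 0.459 FPKM in control libraries (3.84 ± 0.12, adjusted p = 9.52e-10). Fbp1, a gluconeogenic phosphatase, was at 15.5, 12.4 and 11.4 FPKM in NOD 12-week libraries, against 0.317, 0.321 and 0 FPKM in control libraries (3.54 ± 0.16, adjusted p = 3.44e-08). Mt2, a zinc-binding metallothionein, was at 68.8, 75.1 and 69.7 FPKM in NOD 12-week libraries, against 12.4, 5.52 and 10.8 FPKM in control libraries (2.84 ± 0.25, adjusted p = 7.43e-06). All 3 genes separated the groups with no overlap, which the rule for naming them required. Dgat2 and Fbp1 passed the filter through the NOD 12-week libraries alone, so they were bound to lie higher there. For a pair of the largest rises a near-identical copy moved the other way. Tpm3-rs7, whose longest transcript is 99.1% identical over 2108 bases to that of the tropomyosin gene Tpm3, was at 27.9, 24.8 and 25 FPKM in NOD 12-week libraries, against 1.36, 1.72 and 1.27 FPKM in control libraries. Tpm3 itself was at 5.60, 4.95 and 3.91 FPKM in NOD 12-week libraries, against 18.7, 20.6 and 16.9 FPKM in control libraries. Likewise Eno1b was at 7.61, 5.37 and 6.28 FPKM in NOD 12-week libraries and is listed at 0 in every control library, and the glycolytic enzyme gene Eno1, 99.5% identical to it, was at 7.55, 5.85 and 5.27 FPKM in NOD 12-week libraries, against 15.2, 14.1 and 10.1 FPKM in control libraries. Whether the groups differ in these genes or in how their reads were assigned was not tested. Eno1b also passed the filter through the NOD 12-week libraries alone.

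The largest falls ranged from genes listed at 0 in NOD glands to ribosomal protein genes that were still read there. Ly6e, a surface protein anchored to the membrane by a lipid and induced by interferon, headed them with -6.01 ± 0.29. H2-T22, a non-classical class I gene (chr17:36037128-36042747), was at 0.939, 0.790 and 0.545 FPKM in NOD 12-week libraries, against 26.3, 23.6 and 28 FPKM in control libraries (-3.94 ± 0.14, adjusted p = 6.21e-09). Dio1, the deiodinase that turns thyroxine into the active thyroid hormone, was at 0.142, 0 and 0 FPKM in NOD 12-week libraries, against 17, 4.24 and 31.4 FPKM in control libraries (-3.79 ± 0.48, adjusted p = 0.000139), with a wide spread among the controls. Rasd2, a small GTPase, was at 0.747, 0.356 and 0.234 FPKM in NOD 12-week libraries, against 11.7, 14.3 and 12.8 FPKM in control libraries (-3.28 ± 0.16, adjusted p = 5.74e-08). Cd164l2 was at 1.45, 0.883 and 1.17 FPKM in NOD 12-week libraries, against 15.7, 13 and 19.3 FPKM in control libraries. Raet1e, which codes for a ligand of the natural killer cell receptor NKG2D, is listed at 0 in every NOD 12-week library and was at 5.89, 9.02 and 8.43 FPKM in control libraries, with a copy, Raet1d, at 96.0% identity. Rec8, a meiotic cohesin subunit, is likewise listed at 0 in every NOD 12-week library and was at 6.23, 7.28 and 7.56 FPKM in control libraries. The same 2 genes are listed at 0 in all 3 NOD 8-week libraries. H2-T22, Dio1, Rasd2, Raet1e and Rec8 passed the filter through the controls alone, so they were bound to lie lower in NOD 12-week libraries. The ribosomal genes Rpl29, Rpl34 and Rps18, also among the largest falls, are described with their family.

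**Figure D2:**
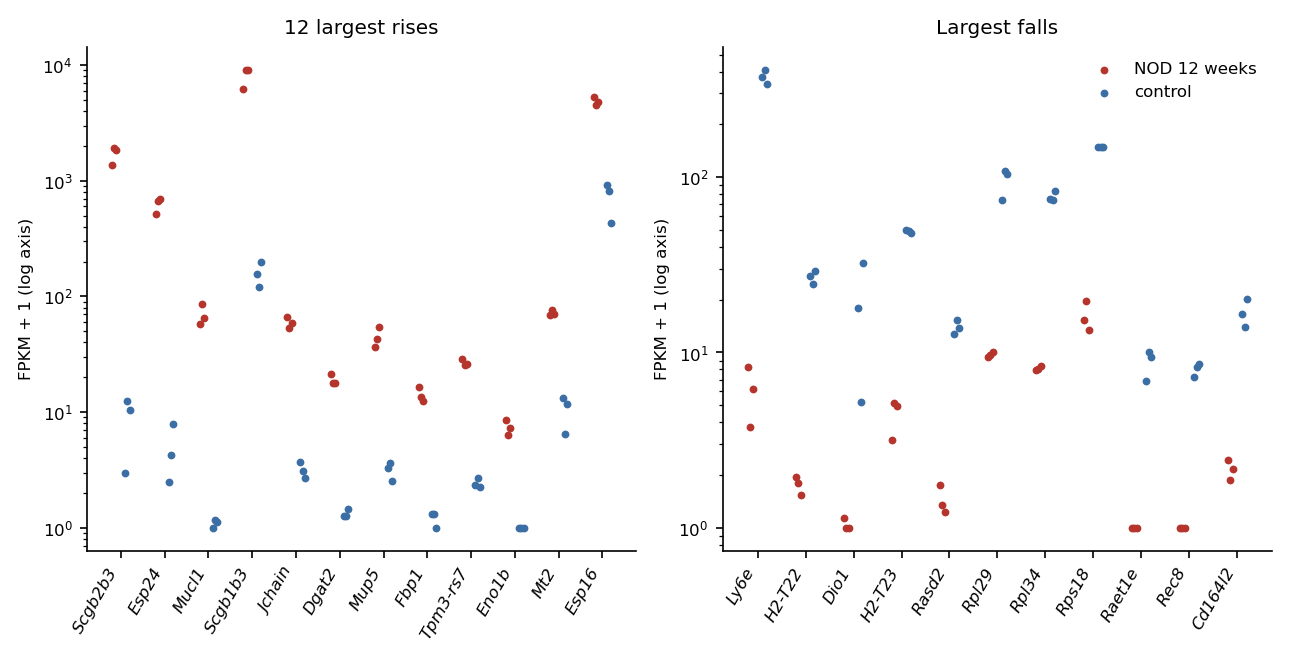
Each point is 1 library, with FPKM + 1 on a logarithmic axis, for the 12 largest rises (left panel) and for 11 of the 12 largest falls (right panel), red for NOD 12 weeks and blue for control. The groups do not overlap for any of these genes, which the rule for naming them required, and the points of Raet1e and Rec8 at 1 stand for libraries where those genes are listed at 0.

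The machinery that folds and ships secreted protein went up in part. Chaperones of the endoplasmic reticulum (ER) fold new secretory proteins, and the unfolded protein response raises their genes through transcription factors that bind the ER stress response element in their promoters. Of 29 genes of this response, 9 rose (31.0%, against 5.63% of all genes) and 0 fell. Their median change was 0.18, against -0.18 for all genes. The count moved with single libraries: as fitted, 4 of the 29 were called higher without control replicate 3 and 4 without NOD 12-week replicate 1. Without each library 3 held (10.3%, against 3.45% of all genes). Under the scalings that centre or rescale the libraries, 17 to 18 were called higher.

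The 3 that held were Calr, Dnajb11 and Trib3. Calr, a calcium-binding chaperone of glycoproteins, was at 583, 460 and 451 FPKM in NOD 12-week libraries, against 350, 338 and 265 FPKM in control libraries (0.65 ± 0.12, adjusted p = 0.00234). Dnajb11, a partner of the main ER chaperone, was at 73.3, 65.2 and 66.1 FPKM in NOD 12-week libraries, against 51.5, 53.7 and 57.5 FPKM in control libraries (0.32 ± 0.08, adjusted p = 0.0106). Trib3, a pseudokinase induced by ER stress, was at 3.45, 3.08 and 2.66 FPKM in NOD 12-week libraries, against 0.925, 0.642 and 2.20 FPKM in control libraries (0.91 ± 0.20, adjusted p = 0.00476). The groups did not overlap for any of the 3, as for 8.77% of all genes in this direction. Hspa5, the main ER chaperone, was chosen after its values were seen, and was at 300, 227 and 224 FPKM in NOD 12-week libraries, against 187, 191 and 171 FPKM in control libraries (0.44 ± 0.13, adjusted p = 0.0199). The call of Hspa5, like that of the chaperone Hsp90b1 (0.36 ± 0.10, adjusted p = 0.0195), was lost without control replicate 3 or without NOD 12-week replicate 1. Xbp1, which codes for a transcription factor of the response, was at 321, 316 and 301 FPKM in NOD 12-week libraries and 318, 387 and 352 FPKM in control libraries (adjusted p = 0.16).

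The promoters of 3 of these chaperones are printed because they carry that element. Each is the stretch of 250 bases before the gene's start in RefSeq on the reference genome (GRCm38.p6), given 5′ to 3′ on the strand of the gene, with capitals for matches, on either strand, to the element searched, which is CCAAT, then any 9 bases, then CCACG: Hspa5 is on the plus strand (chr2:34771840-34772089), and Calr (chr8:84846932-84847181) and Hsp90b1 (chr10:86705445-86705694) are on the minus strand.
Hspa5: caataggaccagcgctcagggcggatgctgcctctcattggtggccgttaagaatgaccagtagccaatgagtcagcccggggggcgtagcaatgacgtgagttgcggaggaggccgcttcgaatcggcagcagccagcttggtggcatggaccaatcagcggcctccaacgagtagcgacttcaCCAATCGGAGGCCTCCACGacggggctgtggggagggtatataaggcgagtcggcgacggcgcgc
Calr: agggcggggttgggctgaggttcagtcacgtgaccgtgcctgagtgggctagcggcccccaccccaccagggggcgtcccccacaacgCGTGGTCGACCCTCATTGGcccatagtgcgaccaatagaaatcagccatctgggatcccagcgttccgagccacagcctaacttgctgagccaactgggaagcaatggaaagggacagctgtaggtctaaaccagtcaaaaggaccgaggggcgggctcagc
Hsp90b1: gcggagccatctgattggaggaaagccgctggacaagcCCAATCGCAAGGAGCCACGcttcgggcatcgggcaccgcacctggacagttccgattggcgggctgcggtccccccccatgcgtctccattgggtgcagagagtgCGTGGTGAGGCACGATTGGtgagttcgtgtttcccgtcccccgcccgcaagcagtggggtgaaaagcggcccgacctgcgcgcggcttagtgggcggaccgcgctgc
Hsp90b1 holds 2 matches, 1 on each strand, which do not overlap. Among the 29 genes of the response, 24 had a promoter in the RefSeq table and 8 of those held the motif, against 33 of 27025 promoters of the same length (0.122%). Of the 8, Calr, Creld2, Hsp90b1 and Hspa5 rose, and Canx, Derl3, Dnajc3 and Pdia6 were not called. A match describes these letters alone, and the sequence of the NOD strain was not read here.

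Transport from the ER to the Golgi followed with 6 rises and 1 fall among 30 genes, of which 3 rises and the fall held without each library. As fitted, 3 rises were called without NOD 12-week replicate 1. Kdelr3, which codes for a receptor that returns chaperones to the ER, was at 30.8, 25.1 and 30.1 FPKM in NOD 12-week libraries, against 11.7, 15.4 and 12.9 FPKM in control libraries (1.05 ± 0.11, adjusted p = 4.44e-05). Creb3l1, a transcription factor of secretory cells, was at 68.9, 59.5 and 63 FPKM in NOD 12-week libraries, against 37.9, 45.3 and 34.4 FPKM in control libraries (0.70 ± 0.12, adjusted p = 0.000991). Mcfd2, which helps carry glycoproteins out of the ER, was the one that fell (-0.48 ± 0.11, adjusted p = 0.00477). In both Kdelr3 and Creb3l1 every NOD 12-week library lay above every control library, as in 8.77% of all genes. Of 30 genes of the translocon and of signal peptide handling, 2 rose (6.67%) and 3 fell (10.0%), shares near those of all genes (5.63% and 12.7%), and neither rise held without each library. The symbol Srp54a stands for 2 of the 3 falls, as it is listed in 2 places in the table, and its longest transcript is 99.6% identical to that of Srp54b, so these levels are uncertain. Srp9, a subunit of the signal recognition particle, which brings ribosomes to the ER, was at 10.5, 9.39 and 8.92 FPKM in NOD 12-week libraries, against 23.2, 27.6 and 31.4 FPKM in control libraries (-1.42 ± 0.11, adjusted p = 2.56e-06).

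Ribosomal protein genes were lower. Of 46 tested, 45 were called lower as fitted, against 28.3% of all genes. Both ways 28 fell (60.9%, against 12.7% of all genes), all 28 holding without each library, with 0 rises. Under rescaling without the most abundant genes 25 were called lower. The median change was -0.50, or -0.32 relative to the median of all genes, and the summed level was 9260, 8320 and 8540 FPKM in NOD 12-week libraries, against 12400, 12700 and 13400 FPKM in control libraries. A few members stood far below the rest. Rpl34 (chr3:130726831-130730398) was at 6.95, 7.06 and 7.37 FPKM in NOD 12-week libraries, against 74, 72.9 and 81.8 FPKM in control libraries (-3.25 ± 0.10, adjusted p = 1.13e-09). Rpl29 was at 8.37, 8.67 and 9.06 FPKM in NOD 12-week libraries, against 72.9, 107 and 103 FPKM in control libraries. Rps18 was at 14.3, 18.6 and 12.5 FPKM in NOD 12-week libraries, against 147, 148 and 147 FPKM in control libraries. Near copies, with at least 95% identity over at least 50% of the longest transcript, numbered 6 for Rpl29 and 6 for Rps18, the closest at 98.1% and 99.1%, while Rpl34 had none by this rule. How the reads of such copies were assigned in each group was not tested. Rpl10, with 9 near copies, was at 221, 196 and 200 FPKM in NOD 12-week libraries and 246, 264 and 244 FPKM in control libraries (-0.29 ± 0.11, adjusted p = 0.0612).

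Of 42 nuclear genes of oxidative phosphorylation, 9 fell (21.4%, against 12.7% of all genes) and held without each library. As fitted 25 were called lower, 15 without control replicate 3, 14 without NOD 12-week replicate 2 and 16 without NOD 12-week replicate 3. Ndufs1, a subunit of complex I, was the one to rise (0.35 ± 0.11, adjusted p = 0.0294), a call lost without control replicate 1, control replicate 3, NOD 12-week replicate 1 or NOD 12-week replicate 3. Uqcrb, a subunit of complex III with 3 near copies, was at 83.7, 76.6 and 79.5 FPKM in NOD 12-week libraries, against 242, 212 and 244 FPKM in control libraries (-1.53 ± 0.11, adjusted p = 1.84e-06). Sdhd, a subunit of complex II, was at 31.6, 28.2 and 26.7 FPKM in NOD 12-week libraries, against 41.8, 44.4 and 45.6 FPKM in control libraries (-0.59 ± 0.09, adjusted p = 0.000457). Of the 13 genes encoded in the mitochondrial genome, 0 were called either way. In glycolysis 5 of 15 fell (33.3%), and Ldha, lactate dehydrogenase, was at 21.9, 16.4 and 17.7 FPKM in NOD 12-week libraries, against 31.7, 29.4 and 30 FPKM in control libraries (-0.68 ± 0.11, adjusted p = 0.000616). Of 30 proteasome genes 2 fell (6.67%, against 12.7% of all genes).

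Some chaperones outside the ER fell. Of 20 cytosolic and mitochondrial heat shock genes, 5 fell (25%, against 12.7% of all genes), 0 rose and 15 were not called both ways, and all 5 falls held without each library. Hspa8, the standing chaperone of the cytosol with 6 near copies, was at 37.8, 28.4 and 35.5 FPKM in NOD 12-week libraries, against 81.7, 132 and 102 FPKM in control libraries (-1.59 ± 0.17, adjusted p = 4.63e-05). Cryab, a small heat shock protein, was at 24.3, 21.7 and 23.5 FPKM in NOD 12-week libraries, against 46.4, 42.1 and 74.4 FPKM in control libraries (-1.15 ± 0.18, adjusted p = 0.000657). Hsph1, a partner of Hspa8, was at 2.88, 3.15 and 2.81 FPKM in NOD 12-week libraries, against 6.55, 8.84 and 6.63 FPKM in control libraries (-1.07 ± 0.13, adjusted p = 0.000119). None of these genes overlapped between the groups, but 40.7% of all genes also lay wholly lower in NOD 12-week libraries.

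**Figure D3:**
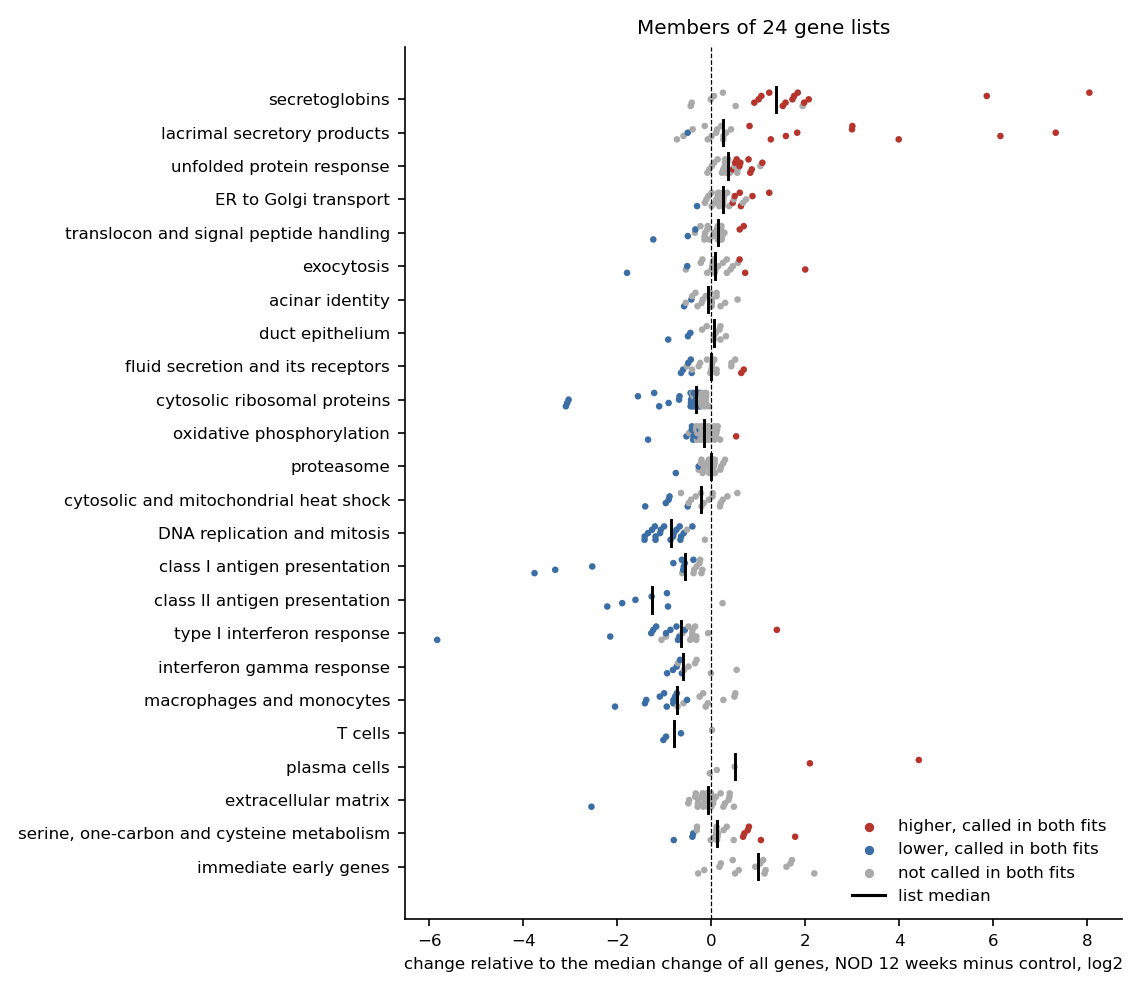
Each point is a tested member of 1 of 24 gene lists, placed by its log2 change, NOD 12 weeks minus control, relative to the median change of all genes, which is the dashed line. Red and blue mark members called higher and lower both as fitted and with centred medians, and the black bar marks the list median. Secretoglobins lie furthest to the right, and class II antigen presentation, DNA replication and macrophage markers lie to the left.

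Genes of cell division that passed the filter were mostly lower. Of 21 genes of DNA replication and mitosis tested, 19 fell (90.5%, against 12.7% of all genes), all holding without each library, and 0 rose. Members such as Top2a and Cdk1 passed the filter through the controls alone. They were bound to lie lower in NOD 12-week libraries, so the count leans towards falls. With a filter at 5 FPKM, which tests fewer genes, 2 were called lower as fitted. The median change was -1.05, or -0.86 relative to all genes. Top2a, which untangles DNA for division, was at 0.542, 0.258 and 0.309 FPKM in NOD 12-week libraries, against 3.15, 1.44 and 2.53 FPKM in control libraries (-1.27 ± 0.16, adjusted p = 0.000143). Cdk1, the kinase that starts mitosis, was at 0.677, 0.277 and 0.272 FPKM in NOD 12-week libraries, against 3.28, 1.62 and 3.19 FPKM in control libraries (-1.37 ± 0.19, adjusted p = 0.000311). Pcna, the sliding clamp of DNA polymerase, was at 9.43, 7.69 and 7.68 FPKM in NOD 12-week libraries, against 25.9, 15.2 and 20.2 FPKM in control libraries (-1.19 ± 0.16, adjusted p = 0.000281), with 1 near copy. The summed level of the list was 38.3, 27.6 and 28.3 FPKM in NOD 12-week libraries, against 131, 62.2 and 117 FPKM in control libraries, so control replicate 2 was the lowest of its group and still above every NOD library. Apart from Pcna, the named members are low in both groups, and the ages of the controls, which are not given, cannot be told apart from other differences between the groups here.

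Immune genes did not move together. Plasma cells, the antibody-secreting cells that normally populate lacrimal tissue, make the joining chain of IgA and IgM, coded by Jchain. Of 5 plasma cell markers tested, Jchain and Mzb1 rose (40.0%, against 5.63% of all genes) and held without each library, and 0 fell. Jchain was at 66.1, 52.2 and 57.4 FPKM in NOD 12-week libraries, against 2.73, 2.09 and 1.71 FPKM in control libraries (4.23 ± 0.17, adjusted p = 1.65e-08). All 11 markers of the list summed to 248, 199 and 196 FPKM in NOD 12-week libraries, against 140, 136 and 165 FPKM in control libraries, and Fkbp11 and Derl3, which acinar cells also use, were not called. Members below the filter, chosen after their values were seen, were Pou2af1, a co-activator of antibody genes, at 0.814, 1.03 and 0.674 FPKM in NOD 12-week libraries, against 0, 0.0531 and 0 FPKM in control libraries, and Slamf7, a surface receptor, at 0.170, 0.291 and 0.0862 FPKM in NOD 12-week libraries, against 0.702, 0.713 and 0.440 FPKM in control libraries. Of 13 B cell markers, Cd79a, a subunit of the B cell receptor, could be read, at 1.10, 0.694 and 0.604 FPKM in NOD 12-week libraries, against 0.0964, 0 and 0 FPKM in control libraries, and it was below the filter.

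T cell markers were lower. Of 24 listed, 8 were in the table and 4 could be tested. Of these Ccl5, Nkg7 and Thy1 fell (75.0%, against 12.7% of all genes) and held without each library. Ccl5, a chemokine of activated T cells, was at 3.59, 1.31 and 1.76 FPKM in NOD 12-week libraries, against 6.66, 4.39 and 7.62 FPKM in control libraries (-1.20 ± 0.26, adjusted p = 0.00477). Nkg7, a granule protein of cytotoxic cells, was at 0.663, 0.799 and 0.371 FPKM in NOD 12-week libraries, against 2.74, 1.94 and 3.03 FPKM in control libraries (-1.14 ± 0.27, adjusted p = 0.00693). Nkg7 passed the filter through the controls alone. Thy1 is also carried by fibroblasts and nerve. The 8 markers summed to 12.1, 4.98 and 6.20 FPKM in NOD 12-week libraries, against 18.6, 17 and 18.6 FPKM in control libraries.

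Macrophage genes fell widely. Of 20 tested, 11 fell (55.0%, against 12.7% of all genes) and 0 rose. All 11 held without each library, and the median change was -0.91, or -0.72 relative to all genes. Fcer1g, the signalling chain of Fc receptors, was at 7.43, 2.27 and 3.77 FPKM in NOD 12-week libraries, against 21.8, 27.2 and 20.1 FPKM in control libraries (-2.23 ± 0.30, adjusted p = 0.000255). Ctss, a protease that trims the class II invariant chain and is also measured in tears of patients with Sjögren's syndrome, was at 21.1, 11.4 and 14.2 FPKM in NOD 12-week libraries, against 54.1, 59.1 and 33.6 FPKM in control libraries (-1.59 ± 0.27, adjusted p = 0.000957). The complement gene C1qa was at 31.2, 21.4 and 19.6 FPKM in NOD 12-week libraries, against 55.7, 59.9 and 44 FPKM in control libraries (-1.13 ± 0.19, adjusted p = 0.000861). Other defining markers were not called: Csf1r, the growth factor receptor of macrophages, was at 5.09, 3.69 and 3.98 FPKM in NOD 12-week libraries and 6.38, 7.91 and 3.53 FPKM in control libraries (adjusted p = 0.207). Of 23 listed markers, 22 had values, in 23 entries. These summed to 210, 137 and 141 FPKM in NOD 12-week libraries, against 394, 412 and 254 FPKM in control libraries, lowest among the controls in replicate 3.

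Antigen presentation fell with them. Class I molecules show peptides from inside every cell, and class II molecules show peptides taken up by antigen-presenting cells. Of 17 class I genes, 9 fell (52.9%, against 12.7% of all genes), and 8 of these held without each library. Among them H2-T22 passed the filter through the controls alone and was bound to lie lower. Of 7 class II genes, 6 fell (85.7%) and held. Neither list had a rise (0, against 5.63% of all genes). Tapbp, which loads peptides onto class I, was at 10.9, 11 and 10.7 FPKM in NOD 12-week libraries, against 18.4, 20.4 and 19.2 FPKM in control libraries (-0.78 ± 0.12, adjusted p = 0.000626). Psme2, an activator of the proteasome with 1 near copy, was at 12, 13.1 and 11.8 FPKM in NOD 12-week libraries, against 20.5, 20.8 and 23.6 FPKM in control libraries (-0.77 ± 0.10, adjusted p = 0.000261). H2-Ab1, a class II chain, was at 22.6, 16.3 and 16.6 FPKM in NOD 12-week libraries, against 65.1, 78.7 and 55.8 FPKM in control libraries (-1.80 ± 0.15, adjusted p = 6.02e-06). Cd74, the invariant chain of class II, was at 123, 81.4 and 86.9 FPKM in NOD 12-week libraries, against 212, 263 and 165 FPKM in control libraries (-1.12 ± 0.24, adjusted p = 0.00398).

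NOD mice are known to carry their own haplotype of the H2 genes, the mouse histocompatibility genes, whereas the reads were set against the reference genome. Between H2-K1 and H2-M3 (chr17:33996017-37274484) 88 genes were tested. Of the 17 H2 genes there, 11 fell (64.7%) and 2 rose, and their median stood -0.92 from that of all genes. Of the other 71 genes there, 13 fell (18.3%), against 17.9% on the rest of chromosome 17 and 12.7% of all genes. Cd74, Psme2 and Tapbp lie outside these ends, which are set by the outermost H2 genes listed. A gene just beyond an end can still be inherited with the haplotype, and how near each of them lies was not measured. How far H2 sequence differences set the H2 values was not tested.

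Genes of the interferon response were lower with one exception. The type I response guards cells against viruses. Of 24 of its genes, 11 fell (45.8%, against 12.7% of all genes) and 1 rose (4.17%, against 5.63%). Of these, 9 falls and the rise held without each library. Members such as Rsad2 passed the filter through the controls alone, so the count leans towards falls. The 29 members with values, tested or not, summed to 224, 222 and 208 FPKM in NOD 12-week libraries, against 713, 790 and 636 FPKM in control libraries. Ly6e alone made 337 to 408 FPKM of this in the controls. Trim25, a ubiquitin ligase of antiviral sensing, was at 0.602, 1.33 and 0.876 FPKM in NOD 12-week libraries, against 9.15, 9.77 and 7.17 FPKM in control libraries (-2.33 ± 0.17, adjusted p = 1.84e-06). Bst2, which tethers budding viruses, was at 16.8, 13.3 and 15.2 FPKM in NOD 12-week libraries, against 30.4, 30.1 and 25.9 FPKM in control libraries (-0.89 ± 0.16, adjusted p = 0.0019). Isg20, an exonuclease, was the exception, at 25.3, 20 and 15 FPKM in NOD 12-week libraries, against 5.43, 8.56 and 10.5 FPKM in control libraries (1.21 ± 0.22, adjusted p = 0.00165). Of 12 genes of the interferon gamma response, 5 fell (41.7%, against 12.7% of all genes). Of these, 2 held without each library (16.7%, against 12.5% of all genes). As fitted 7 were called lower in all, 3 without control replicate 2 and 4 without NOD 12-week replicate 3.

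Interferon-stimulated genes are read through an element whose core is TTTC, then any 2 bases, then TTTC, and 3 promoters that hold it are printed for genes that fell and held without each library. Oas1a and Rsad2 were chosen after their values were seen, and Rsad2 passed the filter through the controls alone. Oas1a, which makes a second messenger that activates RNA decay, was at 1.59, 1.48 and 1.59 FPKM in NOD 12-week libraries, against 7.51, 5.93 and 3.71 FPKM in control libraries (-1.35 ± 0.29, adjusted p = 0.00403). Rsad2, the antiviral enzyme viperin, was at 0.549, 0.854 and 0.444 FPKM in NOD 12-week libraries, against 4.59, 4.08 and 1.78 FPKM in control libraries (-1.42 ± 0.30, adjusted p = 0.0045). The sequences are again the 250 bases before the RefSeq start (GRCm38.p6), all on the minus strand of the genome, and capitals mark matches on either strand, which overlap in Oas1a and in Bst2: Oas1a (chr5:120907526-120907775), Bst2 (chr8:71537473-71537722) and Rsad2 (chr12:26456453-26456702).
Oas1a: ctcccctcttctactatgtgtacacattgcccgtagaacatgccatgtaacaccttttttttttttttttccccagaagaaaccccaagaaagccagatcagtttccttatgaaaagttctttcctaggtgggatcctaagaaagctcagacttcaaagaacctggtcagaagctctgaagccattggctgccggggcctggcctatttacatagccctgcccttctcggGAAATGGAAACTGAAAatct
Bst2: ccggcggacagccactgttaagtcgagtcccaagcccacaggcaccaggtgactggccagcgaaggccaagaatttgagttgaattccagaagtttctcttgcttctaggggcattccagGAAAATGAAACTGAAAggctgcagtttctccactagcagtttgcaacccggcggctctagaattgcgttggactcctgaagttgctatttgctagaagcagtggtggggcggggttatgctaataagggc
Rsad2: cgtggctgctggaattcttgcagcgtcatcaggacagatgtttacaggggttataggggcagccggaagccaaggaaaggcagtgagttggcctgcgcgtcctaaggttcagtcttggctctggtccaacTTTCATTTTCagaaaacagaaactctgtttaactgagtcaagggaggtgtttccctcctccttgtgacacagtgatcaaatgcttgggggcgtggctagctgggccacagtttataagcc
Of the 24 genes of the list, 17 had a promoter in the table and 7 of those held the motif, against 821 of 27025 promoters (3.04%). The 7 were Bst2, Ifit1, Ifit3, Isg15, Oas1a, Rsad2 and Stat2, of which all but Stat2 were called lower as fitted, and Ifit1 and Ifit3 not with centred medians. Trim25 and Ifi35, which fell, held no match, which says only that these letters are not in this window.

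**Figure D4:**
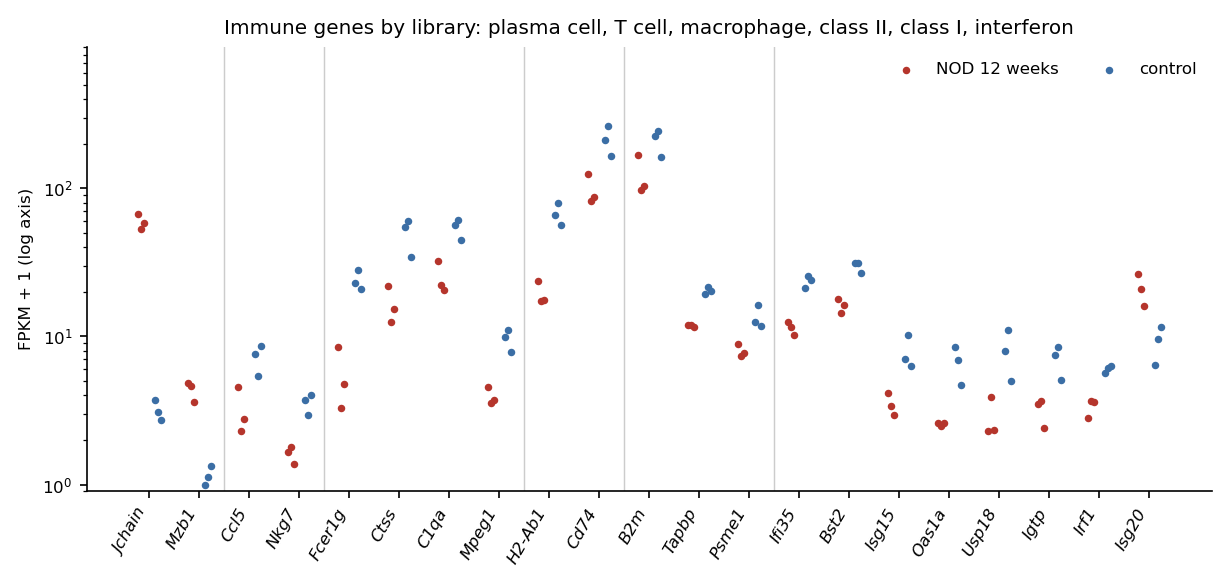
Each point is 1 library, with FPKM + 1 on a logarithmic axis, red for NOD 12 weeks and blue for control, and grey lines part genes of plasma cells, T cells, macrophages, class II, class I and the interferon responses. The NOD 12-week libraries lie above the controls for Jchain, Mzb1 and Isg20 and below them for most of the other genes shown, with NOD 12-week replicate 1 often the highest of its group among macrophage and class II genes.

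The signalling and death genes listed beside these were mostly lower where they were called. In the NF-kB pathway, which drives inflammatory genes, 5 of 13 fell and held without each library (38.5%, against 12.5% of all genes). Nfkbia, the inhibitor that the pathway induces to end its own signal, was at 19.4, 21 and 21.1 FPKM in NOD 12-week libraries, against 42.2, 46.2 and 48.6 FPKM in control libraries (-1.12 ± 0.09, adjusted p = 5.51e-06). Lcn2, an iron-trapping lipocalin, was at 2.40, 2.21 and 2.40 FPKM in NOD 12-week libraries, against 5.82, 6.24 and 4.84 FPKM in control libraries (-0.99 ± 0.15, adjusted p = 0.000443). Of 18 genes of apoptosis and necroptosis, 4 fell (22.2%, against 12.7% of all genes) and 1 rose (5.56%, against 5.63%). Bax, which opens mitochondria during apoptosis, was at 7.53, 6.10 and 6.11 FPKM in NOD 12-week libraries, against 13, 9.49 and 14.6 FPKM in control libraries (-0.80 ± 0.17, adjusted p = 0.00375). Of 10 known Sjögren autoantigens, Mov10 rose and Trim21 and Car2 fell. Trim21, the Ro52 antigen, was at 0.790, 1.26 and 0.999 FPKM in NOD 12-week libraries, against 2.44, 3.05 and 1.71 FPKM in control libraries (-0.74 ± 0.17, adjusted p = 0.00725).

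Of 18 acinar genes 2 fell (11.1%, against 12.7% of all genes), Barx2 (-0.76 ± 0.17, adjusted p = 0.00537) and Runx1 (-0.60 ± 0.15, adjusted p = 0.00996), both transcription factors of gland development. Bhlha15, the factor that sets up the secretory cell, was at 325, 316 and 314 FPKM in NOD 12-week libraries and 318, 271 and 297 FPKM in control libraries (adjusted p = 0.303). Of 12 duct genes 3 fell (25%). Sox9, a transcription factor of ducts and progenitors, was at 30.4, 32.2 and 30.1 FPKM in NOD 12-week libraries, against 47.3, 54.6 and 48.4 FPKM in control libraries (-0.68 ± 0.08, adjusted p = 6.03e-05). The tight junction gene Cldn3 was at 101, 86.6 and 76.6 FPKM in NOD 12-week libraries, against 133, 128 and 147 FPKM in control libraries (-0.63 ± 0.11, adjusted p = 0.0014), and Cldn4 fell as well. The keratins Krt8 and Krt18 were not called, with log2 changes of 0.01 and -0.12.

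Fluid secretion runs on the sodium pump, which sets up the gradients that chloride and water follow. Of 22 genes tested 5 fell and held without each library (22.7%, against 12.5% of all genes), among them the pump subunits Atp1b1 and Atp1b3. Atp1b1 was at 10.1, 12.4 and 11.6 FPKM in NOD 12-week libraries, against 17.1, 21.3 and 17.8 FPKM in control libraries (-0.67 ± 0.16, adjusted p = 0.0076). Itpr3, a calcium channel of the ER that triggers secretion, was at 9.56, 10.3 and 9.52 FPKM in NOD 12-week libraries, against 6.5, 7.13 and 6.10 FPKM in control libraries (0.51 ± 0.12, adjusted p = 0.00713). It was the one of 2 rises to hold without each library. The water channel Aqp5, at 178, 162 and 202 FPKM in NOD 12-week libraries and 187, 203 and 234 FPKM in control libraries, was not called (-0.20 ± 0.10, adjusted p = 0.146). Among 22 genes of exocytosis 3 rose (13.6%, against 5.63% of all genes) and 2 fell (9.09%, against 12.7%). Cpe, a peptidase of secretory granules, was at 6.23, 9.53 and 8.13 FPKM in NOD 12-week libraries, against 44.6, 22 and 39.2 FPKM in control libraries (-1.97 ± 0.26, adjusted p = 0.000179).

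In metabolism, Sardh, which feeds one-carbon units from sarcosine into the mitochondrial folate pool, was at 14.1, 14 and 10.8 FPKM in NOD 12-week libraries, against 4.35, 3.5 and 2.95 FPKM in control libraries (1.60 ± 0.14, adjusted p = 6.41e-06). Of its list of 22 serine, one-carbon and cysteine genes, 6 rose (27.3%, against 5.63% of all genes) and 3 fell (13.6%, against 12.7%), with 4 and 3 holding without each library. Mthfd1l, a mitochondrial folate enzyme, rose by 0.60 ± 0.10 (adjusted p = 0.00127). In fatty acid and triglyceride synthesis 4 of 15 genes rose (26.7%), of which Dgat2 held without each library, and 2 fell (13.3%). Me1, which supplies reducing power for fat synthesis, was at 43.5, 38.9 and 35 FPKM in NOD 12-week libraries, against 62.5, 66.6 and 64.9 FPKM in control libraries (-0.71 ± 0.09, adjusted p = 0.000114). Of 23 sterol genes 3 rose (13% of them) and 0 fell, and 1 of the rises held without each library. Of 25 antioxidant and xenobiotic genes 3 fell (12.0%, near the share of all genes), among them Gpx4, which protects membrane lipids, with 2 near copies (-0.60 ± 0.13, adjusted p = 0.00396). The zinc importer Slc39a8 fell (-0.74 ± 0.11, adjusted p = 0.000509) where the metallothionein Mt2 rose.

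Clock and hormone genes gave calls in both directions. The circadian clock is a daily loop of transcription factors, so its genes also move with the hour of collection, which is not given. Of 17 clock genes, 3 rose (17.6%, against 5.63% of all genes) and held without each library. The 2 that fell (11.8%) were near the share of all genes (12.7%), and of these Per3 held. Per3 passed the filter through the controls alone, so it was bound to lie lower in NOD 12-week libraries. Nfil3, a repressor in the loop, was at 103, 69.3 and 55.2 FPKM in NOD 12-week libraries, against 39, 17.3 and 32.9 FPKM in control libraries (1.35 ± 0.35, adjusted p = 0.0112). Per3 was at 0.436, 0.903 and 0.964 FPKM in NOD 12-week libraries, against 1.75, 3.58 and 2.95 FPKM in control libraries (-1.07 ± 0.18, adjusted p = 0.00113). Of 13 genes that glucocorticoids, the adrenal stress steroids, induce, 2 rose (15.4%, against 5.63% of all genes) and 3 fell (23.1%, against 12.7% of all genes). The rises were Mt2, which held without each library, and Mt1 (0.50 ± 0.15, adjusted p = 0.022), which was lost without control replicate 1, control replicate 2 or NOD 12-week replicate 2. The falls were Fkbp5, Lcn2 and Tsc22d3, and all 3 held. Fkbp5, a brake on the glucocorticoid receptor, was at 9.32, 11.6 and 9.47 FPKM in NOD 12-week libraries, against 25, 32.8 and 13.5 FPKM in control libraries (-1.08 ± 0.28, adjusted p = 0.0125). Of 15 genes of the androgen and thyroid axis, 2 rose (13.3%, against 5.63% of all genes) and 3 fell (20%, against 12.7%). Hsd17b4, a peroxisomal enzyme that oxidises fatty acids and estradiol, rose and held, at 168, 156 and 152 FPKM in NOD 12-week libraries, against 122, 127 and 82.9 FPKM in control libraries (0.54 ± 0.13, adjusted p = 0.00979). The rise of the growth hormone receptor gene Ghr (0.43 ± 0.11, adjusted p = 0.013) was lost without control replicate 1. Dio1, Hsd17b11 and Srd5a1 fell and held, though Dio1 and Srd5a1 passed the filter through the controls alone. Srd5a1, which makes the potent androgen dihydrotestosterone, was at 0.432, 0.414 and 0.368 FPKM in NOD 12-week libraries, against 1.30, 1.39 and 1.36 FPKM in control libraries (-0.74 ± 0.12, adjusted p = 0.000933).

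The matrix and its cells gave few calls. Mmp3, a matrix protease, was the one of 31 matrix genes to fall (3.23%, against 12.7% of all genes). It was at 0.929, 0.385 and 0.896 FPKM in NOD 12-week libraries, against 14.9, 9.75 and 7.7 FPKM in control libraries (-2.73 ± 0.26, adjusted p = 1.46e-05). Mmp3 passed the filter through the controls alone, so it was bound to lie lower in NOD 12-week libraries. The matrix list summed to 176, 152 and 156 FPKM in NOD 12-week libraries, against 236, 277 and 153 FPKM in control libraries, so control replicate 3 stood with the NOD libraries. As fitted, 3 matrix genes were called lower in all 6 libraries, 12 without control replicate 3, and 1 without control replicate 2, NOD 12-week replicate 2 or NOD 12-week replicate 3. Of 8 endothelial genes and 3 of nerve and Schwann cells, 0 were called both ways.

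Immediate early genes, which switch on within minutes of a stimulus such as tissue handling, varied within the groups. Of 16 tested 0 were called in all 6 libraries, with a median 0.99 above that of all genes. Their summed level was 1080, 878 and 334 FPKM in NOD 12-week libraries and 343, 235 and 771 FPKM in control libraries, so NOD 12-week replicate 3 and control replicate 3 ran against their groups. Fos, chosen after its values were seen, was at 109, 77.3 and 7.49 FPKM in NOD 12-week libraries and 14.6, 2.20 and 62.9 FPKM in control libraries (adjusted p = 0.315). As fitted, 3 members were called higher without control replicate 3 and 3 without NOD 12-week replicate 3, while 1 was called lower without control replicate 1 and 1 without NOD 12-week replicate 1.

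Markers of blood and of neighbouring tissues differed in few ways. Of 5 red cell genes, Hba-a1 and Alas2 rose (40.0%, against 5.63% of all genes). The summed level was 263, 295 and 335 FPKM in NOD 12-week libraries, against 249, 246 and 141 FPKM in control libraries. Hba-a1 shares 99.8% of its sequence with Hba-a2, which was not called (adjusted p = 0.702), so the split between them is uncertain. Salivary gland markers, 10 of 15 in the table, summed to 0.787, 0.221 and 0.323 FPKM in NOD 12-week libraries and 32.1, 2.57 and 0.897 FPKM in control libraries, highest in control replicate 1, and 6 of them are listed at 0 in each group. The muscle markers summed to 6.67, 0.676 and 25.4 FPKM in NOD 12-week libraries and 5.36, 7.25 and 7.52 FPKM in control libraries. The part of blood, salivary tissue or muscle in the results above was not tested.

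Age within NOD was compared next, since the 8-week and 12-week NOD libraries share a strain. At 12 weeks against 8 weeks, 8 genes rose (0.0803% of those tested) and 4 fell (0.0401%), while 903 had an unadjusted p under 0.05. The count was 4 without NOD 12-week replicate 2, 6 without NOD 12-week replicate 3, 20 without control replicate 2, 21 without control replicate 3, and 3 when transcript values were summed per gene. None of the 12 largest rises and none of the 12 largest falls against control was called between the ages. Igfbp3, which binds insulin-like growth factors, was at 12.3, 10.3 and 12.5 FPKM at 8 weeks, 4.57, 4.18 and 3.81 FPKM at 12 weeks, and 5.61, 7.75 and 5.19 FPKM in control libraries (12 minus 8 weeks -1.29, adjusted p = 0.00683). Its 8-week level lay above both other groups, and it was called under all 16 settings run, whereas Hspa8 and Asgr1 were called under 12 and Calml4 under 13. Hspa8 was at 80, 77.7 and 75.1 FPKM at 8 weeks, 37.8, 28.4 and 35.5 FPKM at 12 weeks, and 81.7, 132 and 102 FPKM in control libraries (-1.18, adjusted p = 0.0197). Every 12-week library lay below every 8-week library, and every 8-week library below every control library. Asgr1, a receptor for glycoproteins that have lost their sialic acid, was at 58.6, 58.6 and 60.5 FPKM at 8 weeks, 153, 124 and 122 FPKM at 12 weeks, and 32.8, 20.7 and 22.9 FPKM in control libraries (1.15, adjusted p = 0.0274). Calml4, a calmodulin-like gene, stood in the same order, with 2.22, 2.56 and 1.70 FPKM at 8 weeks, 5.32, 5.34 and 4.80 FPKM at 12 weeks, and 0.115, 0.0709 and 0.147 FPKM in control libraries (0.97, adjusted p = 0.00683). Mup5 was highest at 8 weeks, with 239, 220 and 235 FPKM there, 35.5, 41.5 and 52.9 FPKM at 12 weeks, and 2.29, 2.66 and 1.54 FPKM in control libraries. Its difference between the ages was not called (-2.41 ± 0.73, adjusted p = 0.319). The fit shares 1 spread over all 12 libraries, and the ESS libraries for Mup5 ran between 0.912 and 34.4 FPKM.

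**Figure D5:**
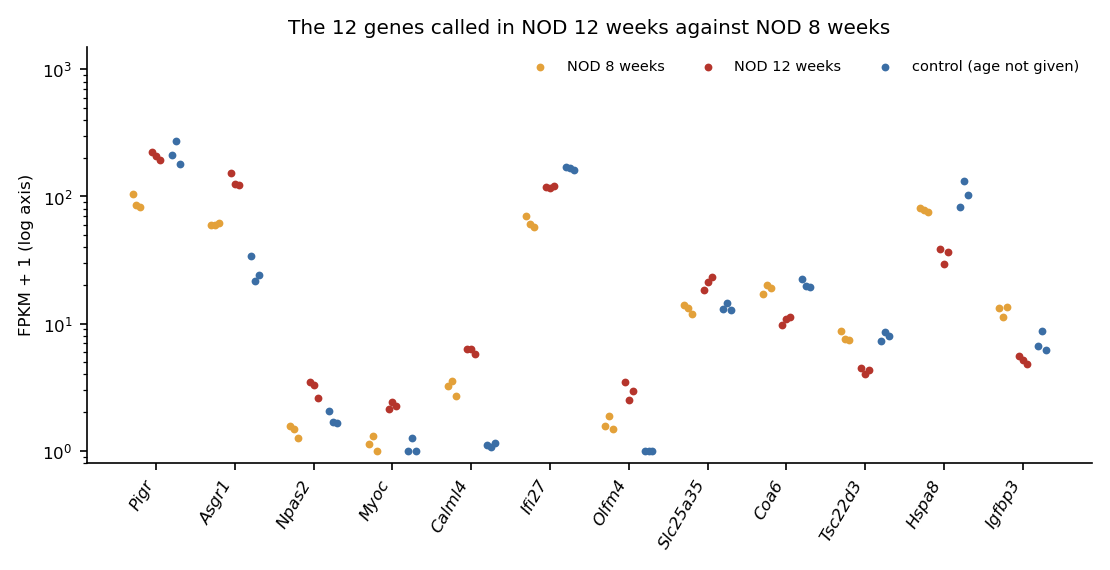
Each point is 1 library, with FPKM + 1 on a logarithmic axis, for the 12 genes called in NOD 12 weeks against NOD 8 weeks, ordered by that change from the largest rise at the left to the largest fall at the right. Yellow marks NOD 8 weeks, red NOD 12 weeks and blue control, whose age is not given. For Hspa8, Coa6 and Tsc22d3 the 8-week libraries lie beside the controls, and for Igfbp3 the 8-week libraries lie above both other groups.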

How the data were processed

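RNA from whole lacrimal gland was extracted with Trizol and made into stranded libraries with a KAPA kit, per the labels' protocols. The authors deposited FPKM values per gene and per transcript, with no counts. The genome build was GRCm38, per the submitters' processing notes, while the aligner, counter and annotation behind them were not given in the sources read. Whole reads could not be recovered from the values, so no count test was run.

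Genes at 1 FPKM or more in 3 of the 6 libraries compared were set on log2(FPKM + 1) and fitted with limma 3.58.1 (R 4.3.3, trend on mean level, Benjamini-Hochberg adjustment) over all 12 libraries with a mean per group, leaving 8 residual degrees of freedom. In the fit, the ESS libraries served the estimate of the spread alone. They also entered the gene means used for centring. Near copies were sought with blastn 2.17.0 among GENCODE M21 transcripts, at 95% identity over 50% of the longest transcript, and motifs in RefSeq promoters.

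The genes compared and the gene lists were chosen with earlier results of these data known. Named genes were the 12 largest rises and 12 largest falls called both ways, at 5 FPKM or more in the higher group with no overlap, then per list the 4 called members with the smallest adjusted p in each direction and up to 2 uncalled members of highest level, the 10 most abundant genes, and 6 genes of the age comparison. Predicted genes and antigen receptor segments were left out. Esp31, Lcn11, Tpm3, Hspa5, Hsp90b1, Creld2, Canx, Dnajc3, Pdia6, Ifit1, Ifit3, Isg15, Oas1a, Rsad2, Tapbp, Cd74, Fos, Pou2af1, Slamf7, Cd79a, Coa6, Olfm4 and Slc25a35 were chosen after their values were seen or with their motif or comparison. The alternatives varied the pseudocount, the filter, the scaling, the libraries, the table and a replicate term. Replicate numbers did not pair the NOD 12-week and control libraries, whose same-numbered deviations correlated at -0.0136, -0.0313 and -0.0325.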

Additional observations from a re-analysis of the deposited data

Results flagged for a closer look

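The 12 genes called between NOD 12 weeks and NOD 8 weeks differ between 2 ages of 1 strain, by limma with Benjamini-Hochberg adjustment over all genes tested. At 12 weeks Pigr, the receptor that carries IgA into tears, was higher by 1.19 (adjusted p = 0.0105), at 103, 85 and 82 FPKM at 8 weeks, 221, 207 and 191 FPKM at 12 weeks and 212, 273 and 178 FPKM in control libraries. Asgr1 was higher by 1.15, Npas2, a clock factor, by 1.11 (adjusted p = 0.0105), Myoc by 0.99 (adjusted p = 0.0107), Calml4 by 0.97, Ifi27, an interferon-induced gene, by 0.92 (adjusted p = 0.0137), Olfm4 by 0.84 (adjusted p = 0.0187) and Slc25a35 by 0.69 (adjusted p = 0.0409). Ifi27 was at 69.3, 60 and 56.1 FPKM at 8 weeks, 117, 115 and 120 FPKM at 12 weeks and 171, 168 and 160 FPKM in control libraries. Lower at 12 weeks were Igfbp3 (-1.29), Hspa8 (-1.18), Tsc22d3 (-0.88, adjusted p = 0.00881), which glucocorticoids induce, and Coa6 (-0.82, adjusted p = 0.0173), an assembly factor of complex IV. Tsc22d3 was at 7.82, 6.57 and 6.4 FPKM at 8 weeks, 3.51, 3.04 and 3.34 FPKM at 12 weeks and 6.23, 7.53 and 6.94 FPKM in control libraries. Igfbp3 was called under each of the 16 settings run, Pigr under 15, Ifi27 and Tsc22d3 under 14, and the other genes under 10 to 13. With 3 libraries a group, single libraries were not screened for outlying values.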

How the results depend on the processing

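All counts here are of calls as fitted under 1 setting at a time. Against 561 genes called higher and 2825 lower, centring the library medians gave 1268 and 1266, quantile normalization 1285 and 1352, rescaling without the 58 most abundant genes 1196 and 1303, and a filter at 5 FPKM, which tests fewer genes, 332 and 1744. Leaving out 1 of the 6 libraries gave 400 to 530 higher and 1935 to 2633 lower. Between the ages, the 12 calls became 19, 22 and 25 under those 3 scalings, 3 with transcript values summed per gene, and 4 to 21 with 1 control or NOD 12-week library left out. No NOD 8-week library was left out. Over all gene lists, 77 called higher and 297 lower became 127 and 166 with centring, 124 and 186 with quantile normalization and 134 and 163 with rescaling. Of 310 named genes 213 were called, 132 of them under every setting. With transcript values summed, the change was -0.04 in Sec63, 0.27 in Atg16l1 and 0.14 in Slc1a5, each the reverse of its sign in the gene table. The cause was not tested. Without the 2 ESS libraries with salivary transcripts, an alternative chosen after seeing the data, 524 genes were called higher and 2633 lower as fitted. Absolute depth is unknown, so differences near 0 FPKM carry no counting limit.

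With the replicate number as a block, 614 genes were called higher and 2871 lower than control, 10 were called between the ages, and over the gene lists 81 were called higher and 305 lower. Of the 310 named genes 3 were newly called and 3 lost under the block.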
